A study of Rattus norvegicus with 4 samples.

Results

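The apoptotic caspases Casp2, Casp6, Casp8 and Casp9, the scaffold Apaf1 and the caspase and cell death inhibitors Xiap, Birc2 and Birc3 were described in NR8383 cells, a macrophage line derived from rat lung lavage. Probes were taken from the array by gene name, control spots left out, and all 8 genes were found among the 18831 named genes of the array. They were represented by 17 probes on 18 spots. The series as analysed here holds 1 group of 4 samples, labelled as the submerged control, of cells after 20 passages in medium with 15% serum. The design text calls the samples biological replicates. It gives 4 h of submerged incubation, whereas the treatment protocol gives 48 h after seeding, and values are reported without a duration. There is no second condition, so the data show which of these genes the cells expressed and how far replicates differed. NR8383 is an established line grown alone, and neither a fresh alveolar macrophage nor a cell undergoing induced death was measured.

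Caspases are cysteine proteases that cut proteins after aspartate and are made as inactive precursors. Initiator caspases become active when adaptor complexes bring them together: Casp8 at ligand-bound death receptors through Fadd, Casp9 on the apoptosome that Apaf1 forms with released cytochrome c, and Casp2 on a complex of Pidd1 and Cradd. Executioner caspases such as Casp6 then cleave structural and regulatory proteins. The inhibitor of apoptosis proteins hold this cascade in check: Xiap binds and blocks active caspases, and the cellular inhibitors encoded by Birc2 and Birc3 are ubiquitin ligases that act mainly in tumour necrosis factor receptor complexes. In macrophages Casp8 also restrains necroptosis, a lytic death that runs through Ripk3 and Mlkl.

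Levels are the log2 of the processed fluorescence signal minus the log2 of the same array's 75th percentile, so 0 is the 75th percentile of that array and each unit is a doubling. That percentile was 1317, 1489, 1179 and 958 fluorescence units on replicates 1 to 4. Detection followed the scanner software's flag for signal well above background, required on more than 0.5 of a probe's spots. A gene counts as detected here if some probe of it passed on each of the 4 arrays. Detected genes numbered between 10638 and 11327 per array. The 5 bright spike-in probes lay 4.53 to 5.50 log2 units above the 75th percentile, highest on replicate 4. The order of the arrays given for a probe holds for this scale. Replicate 4 was the lowest array for 7 of the 15 member probes detected on all arrays. It was lowest for 14 of the 15 when the arrays were scaled on the spike-in probes instead. That scaling moves all probes of an array alike, by 0.38, 0.38, -0.18 and -0.58 on replicates 1 to 4. The same counts over all detected probes were not computed, so these counts show a dependence on the scale and no trait of the members. Levels of different probes depend on how each probe binds and are not set against each other. Of 10 macrophage markers 7 were detected, among them the lysosomal glycoprotein Cd68 at 4.74 ± 0.05 (SD, n = 4), whereas Adgre1, Cd163 and Marco were not. Lists for T cells, B cells, neutrophils, epithelium, fibroblasts and endothelium had 1 of 5, 1 of 4, 1 of 4, 0 of 5, 2 of 4 and 3 of 4 markers detected. Of all named genes 54.9% were detected. The endothelial markers detected were Vwf at 1.23 ± 0.27, Pecam1 at -0.70 ± 0.10 and Cdh5 at -3.88 ± 0.26. By these counts the macrophage list, at 70%, does not stand out from the endothelial one, at 75%.

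Of the 8 genes 7 were detected on all 4 arrays, all but Birc3, beside 54.9% of all named genes. By probe, 15 of 17 were detected on all 4 arrays, beside 42.5% of all probes on the array. All 17 were positive and significantly above background on all 4 arrays by the less strict flag of the scanner software. None of the 15 detected probes was called as varying between replicates beyond probes of like signal in limma's variance test. The test called 33 of 19400 probes, or 0.17%. In simulated data it recovered only 3% of probes with 4 times the SD of others, so smaller differences in spread would mostly be missed. In that test 1 of the 15, a probe of Xiap, had an unadjusted p under 0.05.

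**Figure D1:**
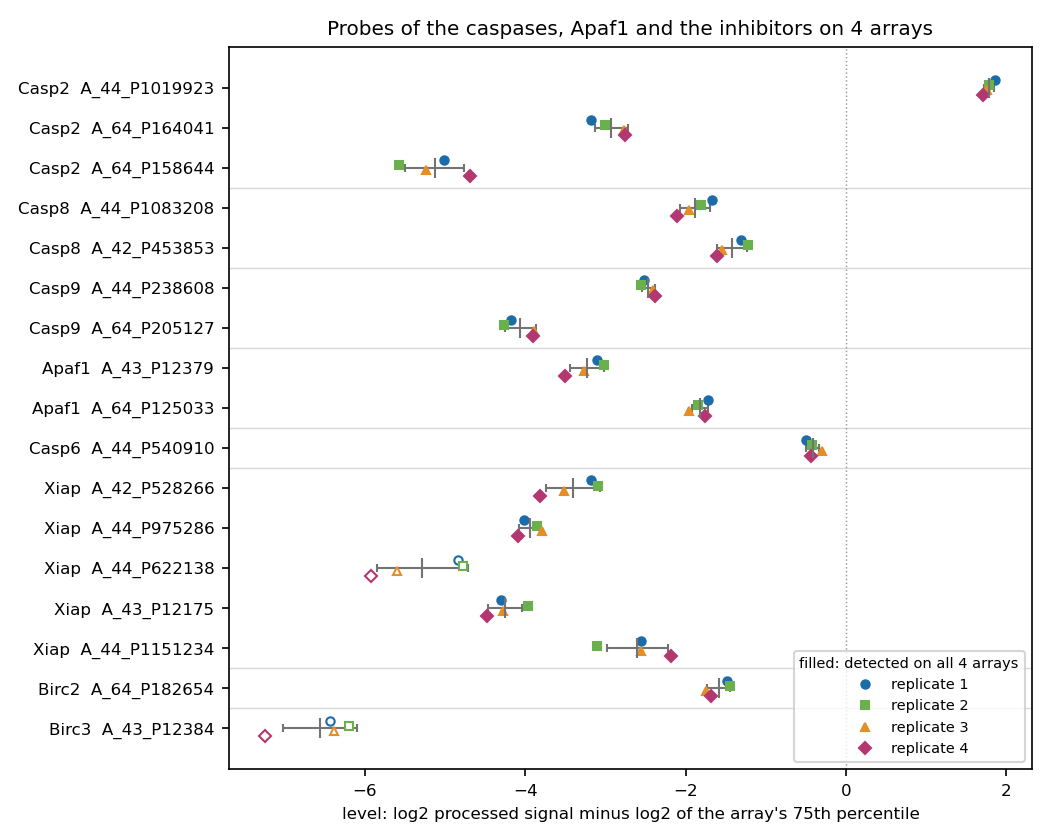
Level of each probe on each of the 4 arrays (x axis, log2 processed signal minus log2 of the array's 75th percentile; symbols are replicates, the bar is mean ± SD, open symbols are probes not detected on all 4 arrays). The probes of Casp6, and the Casp2 probe at 1.78, have their 4 arrays close together on this scale, the Xiap probe at the bottom of its block has replicate 4 on the right and replicate 2 on the left, and the probe of Birc3 is open.

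Casp2 is an initiator caspase linked to DNA damage and to faulty chromosome number. It had 3 probes on chromosome 4, all on the plus strand of rn4, the build of the array's annotation. No exon or UTR annotation of that build was used here. Their first 30 bases, shown because the probes sample different stretches of the transcript, are
Casp2 A_44_P1019923: atttgaggcctatggtagttgaggtgctca
Casp2 A_64_P164041: agtactgtagtactctgtgccagcagctct
Casp2 A_64_P158644: gctaactgtccaagtctacagaacaaacca
The probe nearest the 3′ end, A_44_P1019923 at chr4:70046975-70047034, had signals of 4799, 5135, 3994 and 3135 units and levels of 1.86, 1.79, 1.76 and 1.71 on replicates 1 to 4. Its mean was 1.78 ± 0.06, and its highest and lowest arrays differed by 1.11-fold, or by 2.17-fold (SD 0.53) when the arrays were scaled on the spike-in probes. Without replicate 1 the SD was 0.04. The probe was printed on 2 spots, whose signals differed by 0.06 to 0.10 log2 units within an array, beside a range of 0.15 between the arrays. The probe A_64_P164041 at chr4:70045051-70045110, 1924 bases upstream, gave levels of -3.18, -3.01, -2.76 and -2.76, lowest on replicate 1. The probe A_64_P158644 at chr4:70041272-70041331, 5703 bases upstream of the first, was dim, with 40.8, 31.4, 31.3 and 37.2 units. Its levels of -5.01, -5.57, -5.24 and -4.69 spanned 1.84-fold. All 3 probes were detected on all arrays, but on this scale they did not rank the arrays alike. Replicate 4 was lowest on the first and highest on the last, and the difference between these probes moved by 1.94-fold. The scanner software gave errors of 5.65 to 6.31 units for the signals of the last. Scaled on the spike-in probes, both were highest on replicate 1, the first was lowest on replicate 4 and the last on replicate 3.

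Casp8 is the initiator at death receptors. Its 2 probes on chromosome 9, chr9:57437607-57437666 and chr9:57437634-57437693 on the plus strand, overlap and share a run of 33 bases, so they are not independent views of the transcript. The stretches below show the start of that overlap, with the shared bases in capitals. They are bases 19 to 48 of the upstream probe and bases 1 to 30 of the downstream one.
Casp8 A_42_P453853: gtgtgctctCTACAGTTCACATGGGTTATC
Casp8 A_44_P1083208: CTACAGTTCACATGGGTTATCTGTGCACTT
The upstream probe had signals of 530, 638, 402 and 314 units and levels of -1.31, -1.22, -1.55 and -1.61, and the downstream one -1.67, -1.80, -1.96 and -2.10. In both, replicates 1 and 2 lay above replicates 3 and 4. The means were -1.42 ± 0.19 and -1.88 ± 0.19. The difference between the overlapping probes stayed between 0.35 and 0.58 log2 units, a span of 1.17-fold, which is smaller than the 1.31-fold and 1.35-fold spans of the probes themselves. Scaled on the spike-in probes, these spanned 2.55-fold and 2.64-fold.

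Casp9 is the initiator of the mitochondrial route. Its 2 probes lie 12708 bases apart on the plus strand of chromosome 5, at chr5:160719541-160719600 and chr5:160706833-160706892. They are shown whole, because they come from distant parts of the gene.
Casp9 A_44_P238608: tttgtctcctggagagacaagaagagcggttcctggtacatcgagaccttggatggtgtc
Casp9 A_64_P205127: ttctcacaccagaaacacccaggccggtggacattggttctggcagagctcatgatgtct
The 3′ probe had signals of 230, 254, 222 and 184 units and levels of -2.52, -2.55, -2.41 and -2.38. Its mean was -2.47 ± 0.08, and it spanned 1.12-fold, or 1.78-fold (SD 0.39) scaled on the spike-in probes. The 5′ probe had levels of -4.18, -4.27, -3.89 and -3.90, with a mean of -4.06 ± 0.19. On both probes replicates 1 and 2 lay below replicates 3 and 4 on this scale, the reverse of Casp8. The SDs of the 3′ and 5′ probes were only 0.56 and 0.89 times those of probes of like signal. Scaled on the spike-in probes, replicates 1 and 2 lay above replicates 3 and 4 on both, as for Casp8, and replicate 4 was lowest. The difference between the probes moved by 1.18-fold.

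Apaf1 is the scaffold on which Casp9 is activated. Its 2 probes on the minus strand of chromosome 7 start 1329 bases apart, at chr7:27933335-27933395 and chr7:27934664-27934723. Their first 30 bases are given to show how they differ in sequence.
Apaf1 A_43_P12379: taatgtgtcttagcaatagtagtcgatagg
Apaf1 A_64_P125033: cccctgacttcagaacatatgtgaccgttg
The 3′ probe had levels of -3.11, -3.02, -3.26 and -3.50, lowest on replicate 4, with a mean of -3.22 ± 0.21. The 5′ probe had levels of -1.72, -1.85, -1.95 and -1.76, lowest on replicate 3, with a mean of -1.82 ± 0.10. On this scale replicate 4 was therefore low on one probe and in the upper part of the range on the other. Their difference moved by 1.48-fold, or by 1.25-fold with normexp background correction. Scaled on the spike-in probes, replicate 4 was the lowest array on both, at -4.09 and -2.34. With replicates 1 to 4 left out in turn, the SD of the 3′ probe was 0.24, 0.20, 0.26 and 0.12. That of the 5′ probe was 0.09, 0.12, 0.07 and 0.12.

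Casp6, the executioner known for cleaving nuclear lamin A, had 1 probe at chr2:227373580-227373639 on the plus strand. It had the lowest G and C content of the member probes, 28.3%, and its first 30 bases are
Casp6 A_44_P540910: actttgccttaccttttgtgacactattta
Signals were 934, 1109, 956 and 710 units. The levels of -0.50, -0.43, -0.30 and -0.43 gave a mean of -0.41 ± 0.08 and a span of 1.14-fold, highest on replicate 3. With replicates 1 to 4 left out in turn the SD was 0.07, 0.10, 0.04 and 0.10. Scaled on the spike-in probes the levels were -0.11, -0.05, -0.48 and -1.01, a span of 1.95-fold with an SD of 0.44.

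Xiap encodes the inhibitor that binds active caspases directly. It had 5 probes on the minus strand of chromosome X, of which 4 were detected on all arrays. The first 30 bases of each are given from the 3′ end of the gene to the 5′ end, with CG pairs in capitals, because the last probe differed from the others in base composition.
Xiap A_42_P528266: tgagagagttctcagtgtctgtgttatcaa
Xiap A_44_P975286: atgatggaatgcaactCGagaccatcttat
Xiap A_44_P622138: tgtctcacatcttccaattaattagtaagg
Xiap A_43_P12175: tggactaccatctaactagcatgtactgac
Xiap A_44_P1151234: gaccctcccctCGggaacCGtCGccCGCGg
The first 4 lie at chrX:3008495-3008529, chrX:3008624-3008683, chrX:3010963-3011022 and chrX:3011521-3011580, 3026 bases from the start of the first to that of the fourth, and were 35% to 36.7% G and C. The span given for the first is 35 bases, shorter than its 60 bases. The fifth, at chrX:3047225-3047284, lies 38730 bases upstream of the first. It was 68.3% G and C and held 8 CG pairs over its whole length, against 1 in the other 4 probes together. In the array's annotation A_42_P528266, A_44_P975286 and A_44_P622138 carry one transcript record, a predicted one. A_43_P12175 and A_44_P1151234 carry another, so the probes may not all sample the same transcript.

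The Xiap probes near the 3′ end gave low signals. A_42_P528266 had 145, 175, 103 and 68.0 units and levels of -3.18, -3.09, -3.52 and -3.82. A_44_P975286 had levels of -4.02, -3.85, -3.80 and -4.08, and A_43_P12175 had -4.29, -3.97, -4.27 and -4.47. A_44_P622138 had 46.1, 54.5, 24.4 and 15.9 units and was not detected on replicate 4. Each of these 4 probes had its lowest level on replicate 4. The SD of A_43_P12175 was 0.21, and 0.25, 0.11, 0.26 and 0.18 with replicates 1 to 4 left out in turn. The lowest level lay on replicate 4 also under quantile, detected-probe and spike-in scaling, whereas with normexp background correction A_42_P528266 alone was lowest there.

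The 5′ probe of Xiap, A_44_P1151234, ran the other way. Its signals were 225, 173, 200 and 212 units, and its levels of -2.55, -3.11, -2.56 and -2.18 were lowest on replicate 2 and highest on replicate 4. Its mean was -2.60 ± 0.38, an SD 2.52 times that of probes of like signal and, on this scale, the widest of the 15 detected member probes. Scaled on the spike-in probes its SD of 0.29 was the narrowest of the 15. Without replicate 2 the SD was 0.22, and no member probe then had an unadjusted p under 0.05. In limma's variance test its unadjusted p was 0.025 and its adjusted p 0.61. As the brightest detected probe A_44_P1151234 sets the level given for the gene, and a mean over the 5 probes gives another value.

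The difference between the 5′ probe and A_42_P528266 was 0.63, -0.01, 0.96 and 1.64 log2 units on replicates 1 to 4, a span of 3.14-fold. Against A_44_P975286 and A_43_P12175 the span was 2.24-fold and 2.70-fold. Each of these differences was lowest on replicate 2 and highest on replicate 4, also with normexp background correction, where the first spanned 2.10-fold, with quantile normalization (3.21-fold) and with the base-composition correction described further on (2.36-fold). Between the 3 detected 3′ probes themselves the differences spanned 1.28-fold to 1.48-fold. A scale common to all probes of an array does not alter these differences. It does alter the order of the arrays: scaled on the spike-in probes, the 5′ probe was highest on replicate 1 and lowest on replicate 4.

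**Figure D2:**
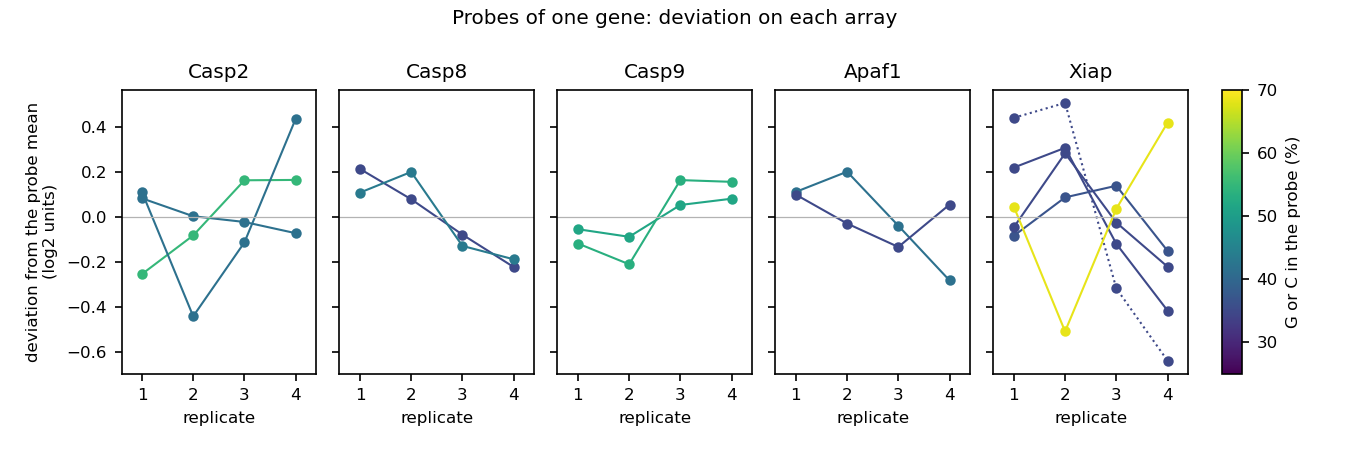
Deviation of each probe from its own mean over the 4 arrays (y axis, log2 units) for the 5 genes with several probes, by replicate (x axis); lines join the values of one probe and imply no order, colour is the probe's G and C content, and the dotted Xiap line is the probe not detected on all arrays. The Casp8 and Casp9 pairs move together, and the Xiap probe of 68.3% G and C lies at -0.51 on replicate 2 and 0.42 on replicate 4, opposite to the other Xiap probes.

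Birc2 and Birc3 encode the cellular inhibitors and are neighbours on the minus strand of chromosome 8. Each had 1 probe by name. For Birc2 the first 30 bases are shown, and for Birc3, the member that was not detected, the whole probe.
Birc2 A_64_P182654: tttaatcttagtctgtagcaggggagggtc
Birc3 A_43_P12384: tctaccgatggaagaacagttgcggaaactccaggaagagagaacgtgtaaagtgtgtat
Birc2, at chr8:4649873-4649932, had signals of 469, 548, 353 and 299 units. Its levels were -1.49, -1.44, -1.74 and -1.68, with a mean of -1.59 ± 0.14, and replicates 1 and 2 lay above replicates 3 and 4, as for Casp8.

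Birc3, at chr8:4682606-4682665, was not well above background on any of the 4 arrays. Its signals were 15.3, 20.3, 14.2 and 6.35 units, with errors of 3.97, 4.56, 4.56 and 4.65 units from the scanner software. The lowest signals called well above background among all probes were 16.7, 18.4, 19.1 and 20.3 units on the same arrays, so only replicate 2 exceeded that mark and was still not called. The less strict flag did call the probe on all 4 arrays. The result rests on 1 probe, and whether that probe hybridises well was not tested.

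Over the 15 detected member probes the SD between arrays ran from 0.06 to 0.38, with a median of 0.19, beside a median of 0.13 over all 19400 detected probes. These spreads belong to the scale on the 75th percentile: scaled on the spike-in probes, the member SDs ran from 0.29 to 0.80 with a median of 0.53, beside a median of 0.48 over all detected probes. In limma's fit the assigned SD was larger for dimmer member probes: 0.09 for Casp2's probe at 1.78 and 0.28 for its probe at -5.13. The part of signal in the member median was not tested. Against the SD that the fit assigns to probes of like signal, 8 of the 15 lay above and the rest below. Over all detected probes 44.3% lay above. The adjusted p of the member probes in limma's variance test lay between 0.61 and 0.997, and 6.5% of all detected probes had an unadjusted p under 0.05.

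**Figure D3:**
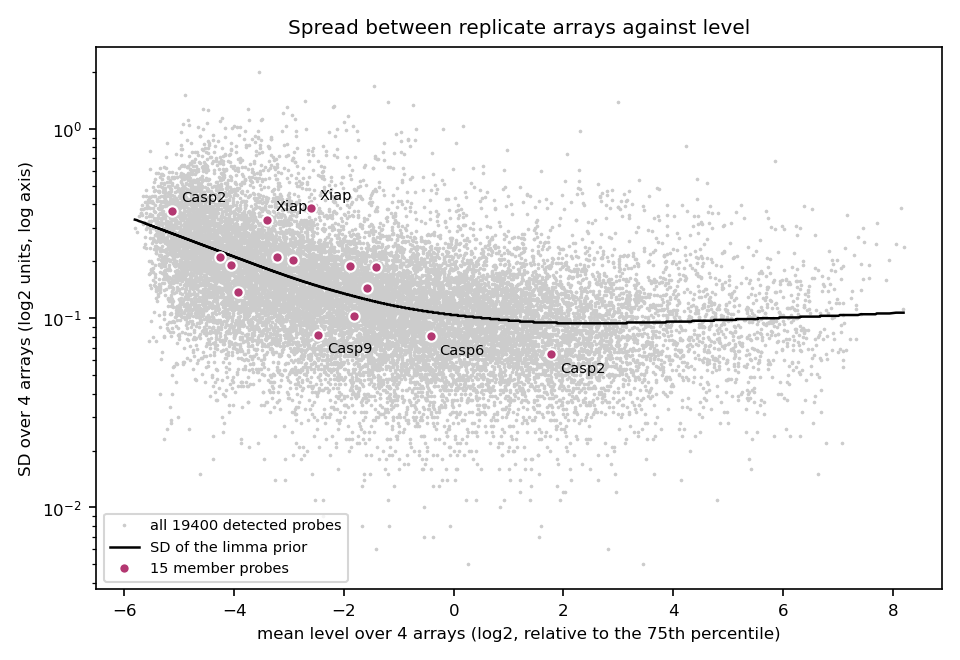
SD over the 4 arrays (y axis, log2 units, log axis) against the mean level (x axis) for all 19400 detected probes in grey and the 15 member probes in colour; the line is the SD of limma's prior at each level. The member probes lie on both sides of the line, with the Xiap probe at an SD of 0.38 farthest above it.

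Base composition moved weakly with the deviation over all probes on replicates 1, 2 and 4, and hardly on replicate 3. Over all 19400 detected probes Pearson's r between G and C content and the deviation was -0.14, -0.19, 0.02 and 0.25 on replicates 1 to 4. Over the 15 member probes it was -0.31, -0.63, 0.32 and 0.63. Xiap's 5′ probe, at 68.3%, lies apart from the other member probes, at 28.3% to 55%. The values without that probe were not computed. These correlations run across probes, which share arrays and in part transcripts, and carry no test. Among the 269 detected probes with at least 60% G and C the median deviation was -0.13 on replicate 2 and 0.24 on replicate 4. Xiap's 5′ probe is of this class, and its deviations there were -0.51 and 0.42. With each class median taken off, the probe's SD was 0.25 in place of 0.38, and its level was still lowest on replicate 2 and highest on replicate 4. The SD of Casp9's 3′ probe was 0.04 in place of 0.08. That of Casp6 was 0.10 in place of 0.08. The correction was chosen after the values were seen, and the part of base composition in the opposed Xiap probes was not tested further.

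**Figure D4:**
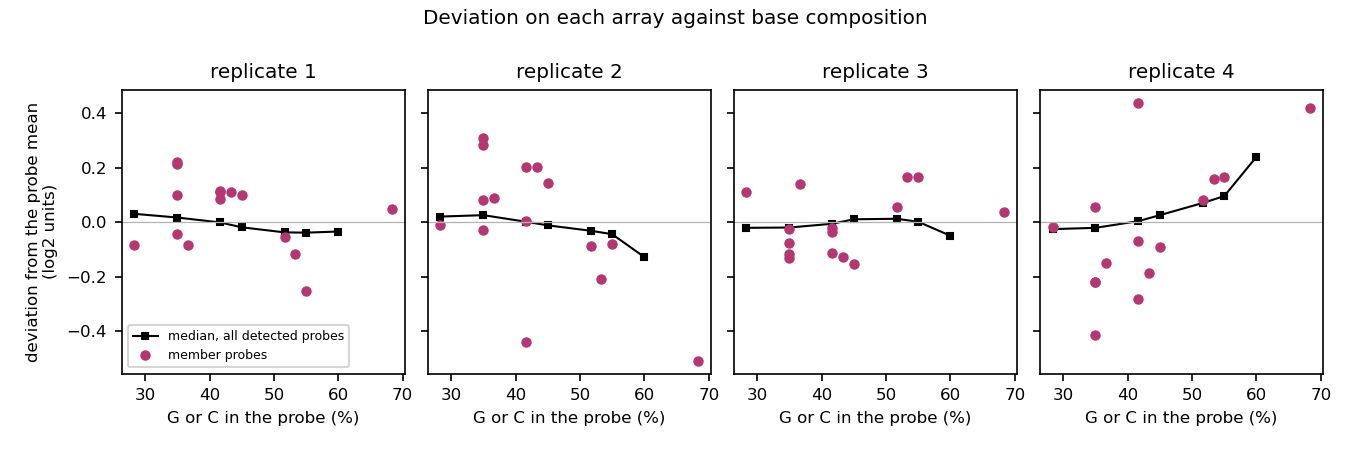
Deviation of each probe from its mean (y axis, log2 units) against its G and C content (x axis, %), in a panel for each replicate; black squares joined by lines are medians over all detected probes in 7 classes of content, placed at the class's median content, and coloured points are the 15 member probes. On replicate 4 the medians run from -0.02 below 35% to 0.24 at 60% and above, and the Xiap probe at 68.3% lies at 0.42.

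The genes that act with these members were followed in 9 lists of 52 genes, of which 50 were on the array. Detected on all 4 arrays were 39 of the 50, or 78.0%, beside 54.9% of all named genes. A further 4 were detected on 1 to 3 arrays and 7 on none. None passed limma's variance test, and 2 had an unadjusted p under 0.05. The median SD of the 39 detected genes was 0.11, by the brightest detected probe of each gene. By the same measure Casp2, Casp6, Casp9, Apaf1, Birc2, Casp8 and Xiap had SDs of 0.06, 0.08, 0.08, 0.10, 0.14, 0.19 and 0.38. The median SDs over probes given further up take in every detected probe and are not set against this value.

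Of 6 other caspases 5 were detected. The inflammatory caspases Casp1 and Casp4 lay at 0.28 ± 0.06 and -1.60 ± 0.12. Casp14, a caspase of the epidermis, was detected on no array. In the receptor-complex list 8 of 9 genes were detected. The death-domain adaptors Fadd and Tradd lay at -3.51 ± 0.06 and 1.50 ± 0.07, and the kinase Ripk1 at 0.50 ± 0.05. Cradd, the adaptor that joins Casp2 to Pidd1, was detected on no array, with levels between -7.72 and -6.88.

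Of 8 death receptors and ligands 5 were detected. The receptor Fas lay at -3.92 ± 0.14 and its ligand Faslg at -3.55 ± 0.36, each by 1 of 2 probes. The tumour necrosis factor receptor Tnfrsf1a lay at 2.01 ± 0.04. The second such receptor, Tnfrsf1b, was detected on 2 arrays, and the death receptor Tnfrsf10b and its ligand Tnfsf10 on none.

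All 4 genes listed as apoptosome partners were detected. Cytochrome c, Cycs, lay at 2.93 ± 0.09, and Aven, which binds Apaf1, at -1.74 ± 0.11. The chaperone Hspa4, part of this list as written, lay at -0.33 ± 0.18, and whether it acts at the apoptosome was not examined. Of the IAP antagonists Diablo and Htra2, mitochondrial proteins that displace caspases from Xiap, lay at 2.11 ± 0.06 and 1.05 ± 0.15. Septin4 was detected on no array and Xaf1 was not matched. In the rest of the IAP family, the mitotic regulator Birc5 lay at 0.91 ± 0.17 and the large ubiquitin ligase Birc6 at -3.33 ± 0.26. Birc7 was detected on 2 arrays, and Naip6 was not matched.

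Of the 4 partners of the cellular inhibitors in noncanonical NF-kB signalling 3 were detected. The adaptor Traf3 lay at -1.85 ± 0.07, by 1 of 2 probes, and the precursor Nfkb2 at 0.46 ± 0.09. The kinase Map3k14, which Birc2 and Birc3 target for degradation, was detected on 3 arrays. Relb had levels of -0.06, -0.13, -0.22 and -0.75, lowest on replicate 4, with an unadjusted p of 0.012 and an adjusted p of 0.42 in limma's variance test. Of the necroptosis genes the kinase Ripk3 lay at 1.97 ± 0.10 and its target Mlkl at -1.12 ± 0.17, and the sensor Zbp1 was detected on 1 array.

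Of 10 caspase substrates 8 were detected. The DNA repair enzyme Parp1 lay at 2.43 ± 0.09. The nuclease inhibitor Dffa and the nuclease Dffb lay at -0.03 ± 0.10 and -3.58 ± 0.09. The pore protein Gsdme and the channel Panx1 were detected on no array. Lmnb1, a nuclear lamin named here after its values were seen, had levels of 0.42, 0.22, -0.28 and 0.12, with an unadjusted p of 0.013 and an adjusted p of 0.44 in limma's variance test.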

How the data were processed

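Total RNA from 4 samples of NR8383 cells was Cy3-labelled and measured on Agilent rat arrays of a single colour, which lay on 1 slide, per the labels' protocols and the file headers. Per the submitters' processing notes, the scanner software was Agilent Feature Extraction 11.0.1.1. The deposited values are fluorescence intensity per spot on a linear scale: a processed signal that was already background-corrected but not normalized between arrays, its error, and mean and local background signals, per the file headers. The deposited detection and outlier flags were used as the software set them.

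Outlier spots were dropped (402 to 615 per array), the log2 processed signal was scaled on the 75th percentile of the 58717 non-control spots, and repeated spots were averaged. No spot was saturated. Probe sequences and rn4 coordinates are those deposited with the arrays. Gene names in the files were updated through a RefSeq table of GRCr8, from which no coordinates were taken. The update matched 23863 of 45598 probes through an accession, 5124 through a symbol and 351 through an older symbol, and the other 16260 kept their deposited name.

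The variance test used limma 3.58.1 (R 4.3.3). It compared each detected probe's variance over the arrays with a robust prior fitted along mean signal, by a one-sided F test with Benjamini-Hochberg adjustment at 0.05 over 19400 probes. Tested on simulated data of 19400 probes, 200 of them made more variable, it recovered 3% when their SD was 4 times that of other probes, with 0 false calls. At 8 times it recovered 64% (3 false calls), and at 16 times 91% (11 false calls). Smaller differences in spread therefore pass unseen at 4 arrays. The p-values measure the spread between these samples. Other software was matplotlib 3.10.9, pandas 2.3.3, scipy 1.17.1, numpy 2.4.6 and Python 3.11.15.

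The members and lists were chosen with earlier results of these data known. The text names every member with each probe, list genes not detected on all arrays, the first 3 detected genes of each list, and any list gene past the variance test; 1 gene that this rule names is not reported here. Marker genes serve only to check the cell label. Alternatives were another detection flag and rule, normexp background correction (offset 50), quantile, detected-probe and spike-in scaling, no filter on dim probes, a prior lacking the robust step or the trend, a threshold of 0.01, each replicate left out and, chosen after seeing the data, a base-composition correction.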

Additional observations from a re-analysis of the deposited data

Results flagged for a closer look

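Dixon's test for 4 samples was applied to the levels of 52 probes and genes. These were the 17 member probes and the list genes picked by the naming rule. Lmnb1, named after its values were seen, was not among them. Chance alone sets apart about 1 in 20, or 2.6 of 52. None of the member probes was set apart. Nfkb2, the precursor of the noncanonical NF-kB subunit, had 1 sample far from the others: its level was 0.60 on replicate 4 and 0.40 to 0.43 on the other arrays, a gap of 0.893 of the whole range. In limma's variance test the adjusted p of this probe was 0.996.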

How the results depend on the processing

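The count of 7 of 8 members detected was the same with detection on at least 2 arrays, with outlier spots kept and without each replicate in turn. It was 8 with the positive and significant flag, which adds Birc3 and calls 65.5% of all named genes. It was 6 when every probe of a gene was required (47.2%), where Xiap is lost. Members were taken by deposited gene name. The share over all genes follows updated names, which add a Birc2 probe detected on 2 arrays, so Birc2 would then be lost too. Detected list genes numbered 39, and 35 to 43 under these detection settings. Member probes past limma's variance test numbered 0 in every setting run, with 0 to 2 at an unadjusted p under 0.05 and a smallest adjusted p of 0.094, without the filter on dim probes. The count over all probes, 33, moved widely: 0 at a threshold of 0.01, 270 with normexp, 50 scaled on the median of detected probes, 2 scaled on spike-ins, 1121 with no filter on dim probes, and 0 without the robust step or the trend. It lay between 0 and 75 with a replicate left out: 0 without replicate 3, 75 without replicate 1 and 52 without replicate 4. The cause was not tested. Spike-in scaling moved the median of detected probes by 0.38, 0.38, -0.18 and -0.58 on replicates 1 to 4. Member levels moved by over 1 SD under normexp for 5 of 8 and as a mean over probes for 5. Scaled on the median of detected probes all 8 moved, because that scaling shifts the zero by 1.57 to 1.60 on each array. Such a move says nothing about the members. Birc3 lay at -3.97 with normexp against -6.56. The offset of 50 units in normexp is larger than the processed signals of this probe, 6.35 to 20.3 units. No paired analysis was possible because all samples form 1 group. Signals near background limit the calls of Birc3 and of the dim Xiap and Casp2 probes.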

Other observations

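One more probe, A_43_P12116 at chr8:4649559-4649574 on the minus strand, carries a transcript identifier in place of a gene name, and its accession places it with Birc2. It was dim, with 33.5, 22.0, 25.9 and 19.1 units on replicates 1 to 4, and was detected on 2 of the 4 arrays, replicates 1 and 3. Its levels were -5.30, -6.08, -5.51 and -5.65, lowest on replicate 2, where the named Birc2 probe, which starts 314 bases upstream, was highest. Its first 30 bases are
Birc2 A_43_P12116: ctccaattgactcattcttaattatataga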
